A study of Mus musculus with 8 samples.

Results

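Hepatocyte plasma protein genes are described here in whole lungs of C57BL/6 mouse fetuses at E18.5. The set has 10 genes, Alb, Afp, Ttr, Gc, Apoa1, Apoa2, Fgb, Fgg, Ahsg and Ambp, of 55385 genes counted, and each was mapped by its symbol to 1 Ensembl gene. The genes were chosen by their CPM in single libraries of this series, so their levels, and which libraries held them, are given as a description with no test.

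The study asked how occlusion of the fetal trachea changes the lung. In the TO group the trachea had been tied off in utero together with 1 carotid artery and 1 jugular vein, and the dam received progesterone to prevent loss of the litter. Controls were lungs of C57BL/6 fetuses of the same age, and the labels give them no treatment. RNA of the entire lung was sequenced as read pairs from 4 control and 4 TO lungs, called control 1 to 4 and TO 1 to 4. The labels name each lung as a sample of its own but no litter or dam, so p-values measure the spread between these lungs. In RNA of a whole organ, fewer cells of a type and less RNA per cell cannot be told apart.

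The depth was 22822261 to 35002061 read pairs on genes in 7 libraries and 270078 in TO 1. Values are CPM, the read pairs of a gene scaled to a common library size, with TMM factors of all 8 libraries. In TO 1, 3 read pairs correspond to 10.3 CPM, and in the other 7 libraries to 0.0852 to 0.131 CPM, so a gene without reads in TO 1 may still have been at the level of the other lungs. All 10 lung epithelial markers examined were detected in every library. Their summed CPM was 8722 to 19549 in the 7 deep libraries and 6593 in TO 1, and Sftpc, the surfactant protein C gene of alveolar type II cells, had the highest mean CPM of the 10, at 5631 in TO 4 and 7771 in control 1. TO 4 is labelled a lung at E18.5 like the others, but beside these lung markers it also held reads of genes known from adult liver, which its label does not explain. Control 1 and TO 4 stood apart from the other lungs in the genes described here, so the comparison of TO with control is given with and without each of them.

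Hepatocytes, the main cells of the liver, make and secrete most proteins of the blood plasma. In the fetus, alpha-fetoprotein is a main plasma protein and is also made by the visceral yolk sac, and after birth the liver shuts the Afp gene down while albumin stays high. The genes of this group are switched on in hepatocytes by a shared set of transcription factors, among them HNF1 and HNF4 alpha, and lung cells are not known as their main source.

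Alb, Afp and Gc belong to 1 gene family and lie on chromosome 5, and Fgb and Fgg lie on chromosome 3 with Fga, the third fibrinogen chain. The promoters of 4 of the genes are shown because they share a short core of the HNF1 site, GTTAAT, while the levels of the 4 genes did not keep 1 ratio among the lungs. Sequences are from RefSeq on GRCm38.p6 and give the 150 bases before the annotated start, read along the gene. Capitals mark GTTAAT, or ATTAAC where the core is on the other strand, and in Afp also TATAAA. These are the letters of a TATA box, but in Afp they lie next to the RefSeq start.
Alb, chr5:90460720-90460869, plus strand: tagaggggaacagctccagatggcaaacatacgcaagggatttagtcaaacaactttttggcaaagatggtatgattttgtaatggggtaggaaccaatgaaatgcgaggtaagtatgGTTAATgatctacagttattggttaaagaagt
Afp, chr5:90490564-90490713, plus strand: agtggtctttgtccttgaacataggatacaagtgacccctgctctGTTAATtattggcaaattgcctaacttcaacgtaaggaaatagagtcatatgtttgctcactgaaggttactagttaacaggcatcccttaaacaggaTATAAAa
Gc, chr5:89457899-89458048, minus strand: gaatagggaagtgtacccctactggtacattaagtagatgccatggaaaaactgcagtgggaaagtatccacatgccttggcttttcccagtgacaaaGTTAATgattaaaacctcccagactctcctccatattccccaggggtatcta
Fgb, chr3:83049864-83050013, minus strand: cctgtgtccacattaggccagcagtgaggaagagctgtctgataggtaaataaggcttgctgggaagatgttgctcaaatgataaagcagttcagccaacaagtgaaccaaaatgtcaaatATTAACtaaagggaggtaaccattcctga

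In these genes the HNF1 core began 32 (Alb), 105 (Afp), 52 (Gc) and 29 (Fgb) bases before the RefSeq start. For Alb and Afp this start lies upstream of the start in GENCODE, so their distances depend on the annotation. Searched on both strands over 250 bases before the start, the core was found in 4 of the 9 genes searched. Ttr was left out of this search. Over all genes the core was found in 2113 of 32851 promoter windows (6.43%). TATAAA was found in 2 of the 9, Afp and Apoa2, and in 12.4% of all windows. A match of letters is a description of these windows and not a measured binding site.

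Reads of the set were concentrated in control 1 and TO 4, for Afp in control 1 alone. Summed over the 10 genes, control 1 had 908.6 CPM and TO 4 405.6 CPM. The other controls had 2.70, 21.5 and 26.4 CPM (controls 2, 3 and 4), and TO 2 and TO 3 had 34.1 and 18.9 CPM. TO 1 had 96.4 CPM, which rests on 28 read pairs (exact Poisson interval 64.1 to 139 CPM at 95%, for counting error only). Within each group, then, 1 lung stood far above the others, and the groups overlapped. Every library had reads of some of the genes, but 5 of the 10 had none in control 2 or in TO 1, and 2 of the 10 had none in control 3 or in TO 3.

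**Figure D1:**
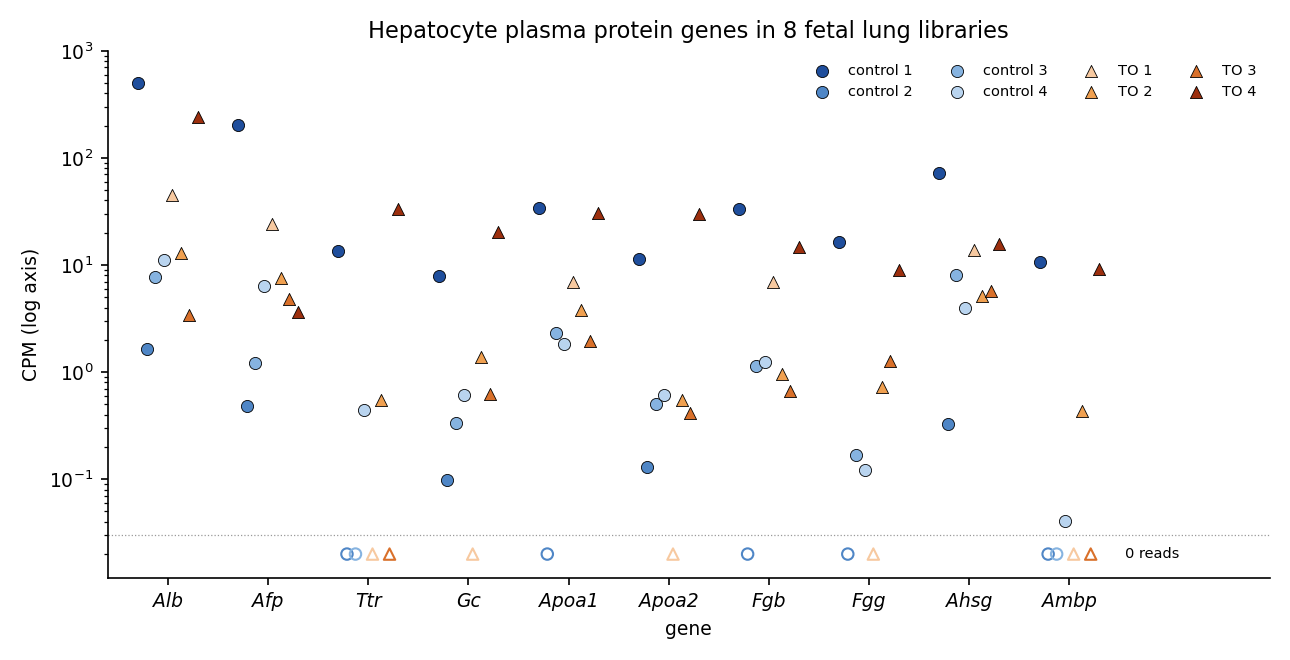
CPM of the 10 genes (log axis) in each library, with controls as circles and TO lungs as triangles; open symbols under the dotted line are libraries with 0 reads. Control 1 and TO 4 lie above the other deep libraries for 9 genes, and for Afp TO 4 lies among them at 3.60 CPM.

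Among the carrier proteins, Alb encodes albumin, which holds water in the circulation and carries fatty acids and hormones. Alb was at 504.5 CPM in control 1, 1.66 in control 2, 7.73 in control 3 and 11.1 in control 4, against 44.8, 13.1, 3.43 and 239.8 CPM in TO 1 to TO 4. It was the highest of the 10 genes in both libraries also per length of its exons, at 215 CPM per kb in control 1 and 102 in TO 4. The mean of 131 ± 249 CPM in controls and 75.3 ± 111 CPM in TO lungs (SD, n = 4 each) was smaller than its SD in both groups. Control 1 was 38.7-fold and TO 4 18.4-fold above the highest of the other 5 deep libraries.

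Afp, the fetal relative of albumin, was at 203.9 CPM in control 1, 0.487 in control 2, 1.21 in control 3 and 6.38 in control 4. In TO 1 to TO 4 it was at 24.1, 7.53, 4.83 and 3.60 CPM. Control 1 alone stood out among the deep libraries, 27.1-fold above the highest of the other 5, and TO 4 was at 0.479 of that highest library. Afp overlaps Gm43449 in the annotation.

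Ttr encodes transthyretin, the carrier of thyroxine and of retinol-binding protein. It was at 13.5, 0, 0 and 0.444 CPM in controls 1 to 4 and at 0, 0.55, 0 and 33.1 CPM in TO 1 to TO 4. Gc, the vitamin D-binding protein gene, was at 7.97, 0.0974, 0.336 and 0.605 CPM in the controls and at 0, 1.39, 0.619 and 20.1 CPM in the TO lungs. Both genes were highest in TO 4, 60.2-fold (Ttr) and 14.5-fold (Gc) above the highest of the 5 lungs other than control 1 and TO 1.

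Apoa1 and Apoa2 encode the main proteins of high-density lipoprotein. Apoa1 was at 34.2, 0, 2.32 and 1.82 CPM in the controls and at 6.89, 3.82, 1.94 and 30.3 CPM in the TO lungs. Apoa2 was at 11.4, 0.130, 0.504 and 0.605 CPM in the controls and at 0, 0.55, 0.413 and 30.2 CPM in the TO lungs. Apoa1 was at nearly the same level in control 1 and TO 4, whereas Apoa2 was clearly higher in TO 4.

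Fgb and Fgg encode the beta and gamma chains of fibrinogen, the clotting protein. Fgb was at 33.6, 0, 1.14 and 1.25 CPM in the controls and at 6.89, 0.955, 0.660 and 14.7 CPM in the TO lungs. Fgg was at 16.5, 0, 0.168 and 0.121 CPM in the controls and at 0, 0.724, 1.28 and 9.0 CPM in the TO lungs. Both were higher in control 1 than in TO 4, as was Fga, which the set does not hold, at 30.7 and 12.3 CPM. Fgg overlaps Gm30097, and read pairs that fall on exons of both genes are counted for neither.

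Ahsg encodes fetuin-A, an inhibitor of calcification that is abundant in fetal plasma, and overlaps Gm30505. It was at 72.4, 0.325, 8.10 and 3.96 CPM in the controls and at 13.8, 5.09, 5.74 and 15.7 CPM in the TO lungs. Control 1 was 8.94-fold above the highest of the other 5 deep libraries and TO 4 only 1.93-fold. Ambp, which encodes the precursor of alpha-1-microglobulin and bikunin, was at 10.7, 0, 0 and 0.0404 CPM in the controls and at 0, 0.434, 0 and 9.08 CPM in the TO lungs.

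Control 1 was at least 5-fold above each of the other 5 deep libraries for all 10 genes, and TO 4 for 8, all but Afp and Ahsg. Of the 24140 genes with at least 5 reads in control 1 or TO 4, 1.28% met this in control 1, 2.52% in TO 4 and 0.427% in both, but the genes were proposed for this pattern and the counts support nothing. For 9 of the 10, all but Afp, both libraries were above the other 5, as for 6.61% of the 24140 genes. Control 1 was the highest deep library for 7 genes and TO 4 for 3 (Ttr, Gc and Apoa2).

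The set moved together among the 7 deep libraries, with Afp and Ahsg as the exceptions. Pearson's r between the log2 CPM of a gene and the mean log2 CPM of the other 9 was 0.980 for Alb, 0.731 for Afp, 0.878 for Ahsg and 0.919 to 0.971 for the remaining 7 genes. These correlations over 7 libraries are a description, and control 1 and TO 4 hold the highest values in nearly all of them. The mean log2 CPM of the 10 genes was 5.08 in control 1 and 4.33 in TO 4, between -2.44 (control 2) and 0.90 (TO 2) in the other 5 deep libraries, and 0.12 in TO 1. Control 2 was the lowest deep library for all 10 genes, tied at 0 with others for 2 of them. Of the 5 deep libraries other than control 1 and TO 4, TO 2 was the highest for 6 genes, control 4 for 2, and control 3 and TO 3 for 1 each.

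The proportions of the genes differed between control 1 and TO 4. For each 100 read pairs of Alb there were 40.4 of Afp in control 1 (exact binomial interval 39.1 to 41.8 at 95%, for counting error only) and 1.5 in TO 4 (1.25 to 1.79). The other lungs held 29.4 (control 2, 15.4 to 53.1), 15.7 (control 3, 10.7 to 22.3), 57.3 (control 4, 46.8 to 69.9), 53.8 (TO 1, 18.2 to 145), 57.7 (TO 2, 49.3 to 67.3) and 141 (TO 3, 105 to 189). TO 4 thus had the lowest share of Afp, and its interval overlaps none of the other 7. Of the reads of the 10 genes, 22.4% were of Afp in control 1 and 0.889% in TO 4, while Ttr, Gc and Apoa2 took 1.49%, 0.877% and 1.25% in control 1 and 8.17%, 4.96% and 7.44% in TO 4. In control 3 and TO 3 Ahsg had the most reads of the 10 genes, at 37.7% and 30.3%, and in the remaining 6 libraries Alb did.

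**Figure D2:**
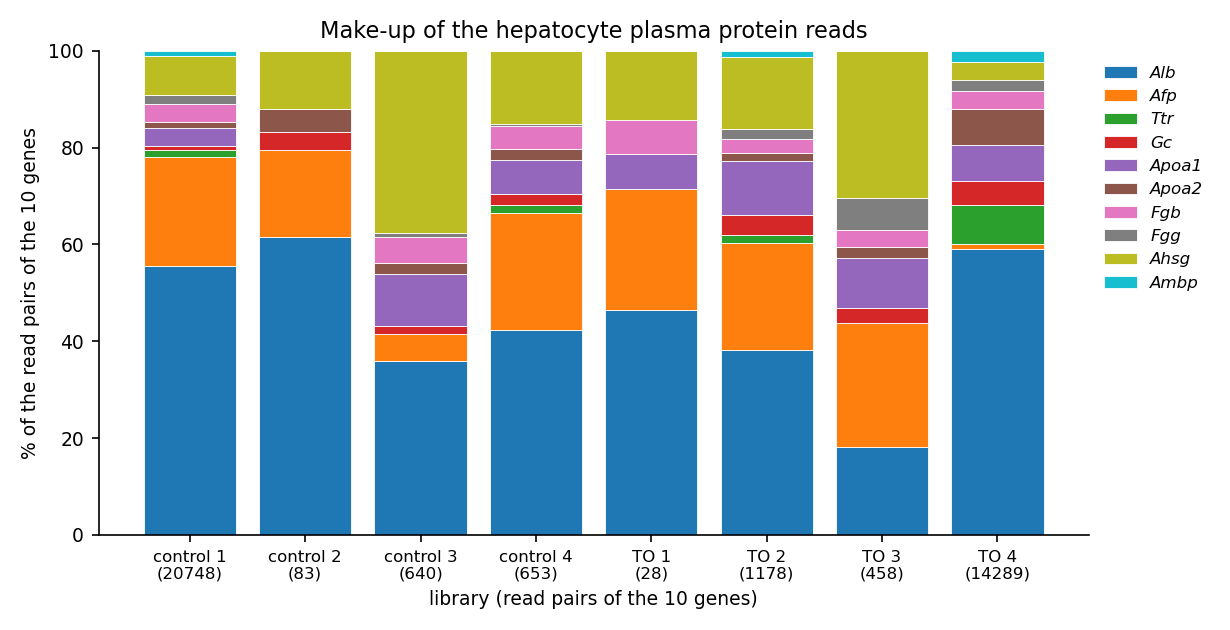
Share of each gene (stacked bars, %) in the read pairs of the 10 genes in each library, with the number of read pairs under the name. The Afp band takes 0.889% in TO 4, against 5.62% to 25.5% elsewhere.

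As a ratio of CPM in TO 4 to CPM in control 1, the genes ranged from 0.0177 to 2.65. Apoa2 was at 2.65 (exact binomial interval 2.31 to 3.05 at 95%), Gc at 2.53 (2.14 to 2.99) and Ttr at 2.45 (2.16 to 2.79). Apoa1 at 0.885 (0.807 to 0.973) and Ambp at 0.847 (0.715 to 1.01) were close to equal. Fgg at 0.545 (0.468 to 0.635), Alb at 0.475 (0.463 to 0.489), Fgb at 0.439 (0.392 to 0.491) and Ahsg at 0.216 (0.196 to 0.239) were lower in TO 4, and Afp was lowest at 0.0177 (0.0147 to 0.0211). The intervals cover counting error between 2 libraries and not the spread between lungs.

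Genes known from hepatocytes but outside the set were examined in 3 lists. Some of them, such as Trf and Adh1, had high CPM in every deep library. For such genes the 5-fold rule says little about reads from hepatocytes. Of 40 other secreted plasma proteins, 11 were at least 5-fold above the other 5 deep libraries in both control 1 and TO 4, 5 in control 1 only, 8 in TO 4 only and 16 in neither. The genes high in both included Apob, the protein of low-density lipoprotein (18.2 CPM in control 1 and 9.59 in TO 4, at most 0.941 in the other 5), Apoh (12.3 and 8.06, at most 0.484) and Plg, the plasminogen gene (11.3 and 3.35, at most 0.232). The 3 most abundant genes of this list, Trf, C5 and Agt, which encode transferrin, complement C5 and angiotensinogen, were not among them. Trf had 304 to 621 CPM in the 7 deep libraries, C5 50.5 to 311 and Agt 22.3 to 52.5, and control 1 and TO 4 were above the other 5 in none of the 3.

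Of 40 hepatocyte enzymes, transporters and regulators, 11 were 5-fold above the rest in both libraries, 0 in control 1 only, 5 in TO 4 only and 24 in neither. Cps1, the first enzyme of the urea cycle, was at 6.26 CPM in control 1 and 4.57 in TO 4, and at most 0.844 in the other 5. The abundant members Adh1, Ass1 and Ahcy, enzymes of alcohol, arginine and methionine metabolism, were at 217 to 648, 99.6 to 259 and 37.4 to 53.3 CPM in the deep libraries, and control 1 and TO 4 lay within the range of the other 5. Of 16 hepatocyte acute phase proteins, 0 were 5-fold up in both, 1 in control 1 only (Itih4), 4 in TO 4 only (Hamp, Orm1, Saa1 and Saa2) and 11 in neither. The 3 most abundant of these, Hp, Cp and C3, were at 45.4 to 129 CPM in TO 4 and at 49.5 to 147 CPM in control 1, and in neither library above the highest of the other 5.

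Several hepatocyte genes were plain in TO 4 and almost absent from control 1 or, as Bhmt, far lower there. Fabp1, the liver fatty acid-binding protein gene, had 531 read pairs in TO 4, 5 in control 1 and 0 in the other 6 libraries, a TO 4 to control 1 ratio of 68.8 (29.3 to 213). It counts among the 11 genes high in both libraries because the other 5 had no read of it. Apoc3 and Apoa5, lipoprotein genes of the same cluster as Apoa1, had 240 and 76 read pairs in TO 4 and 0 in control 1, at least 51.9-fold and 16.4-fold higher in TO 4 when control 1 is set to 3 counts. Cyp3a11, a drug-metabolizing P450, and Bhmt, a methionine cycle enzyme, had ratios of 42.8 (16.5 to 158) and 10.4 (6.95 to 16.3). In the other direction, Igfbp1, an insulin-like growth factor binding protein, had 140 read pairs in control 1 and 5 in TO 4, a ratio of 0.0232 (0.00741 to 0.0554), and Serpina6, which encodes corticosteroid-binding globulin, a ratio of 0.169 (0.111 to 0.251). These 7 genes, Apoh and Cps1 above, and the genes of the next paragraph were chosen after their values were seen.

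**Figure D3:**
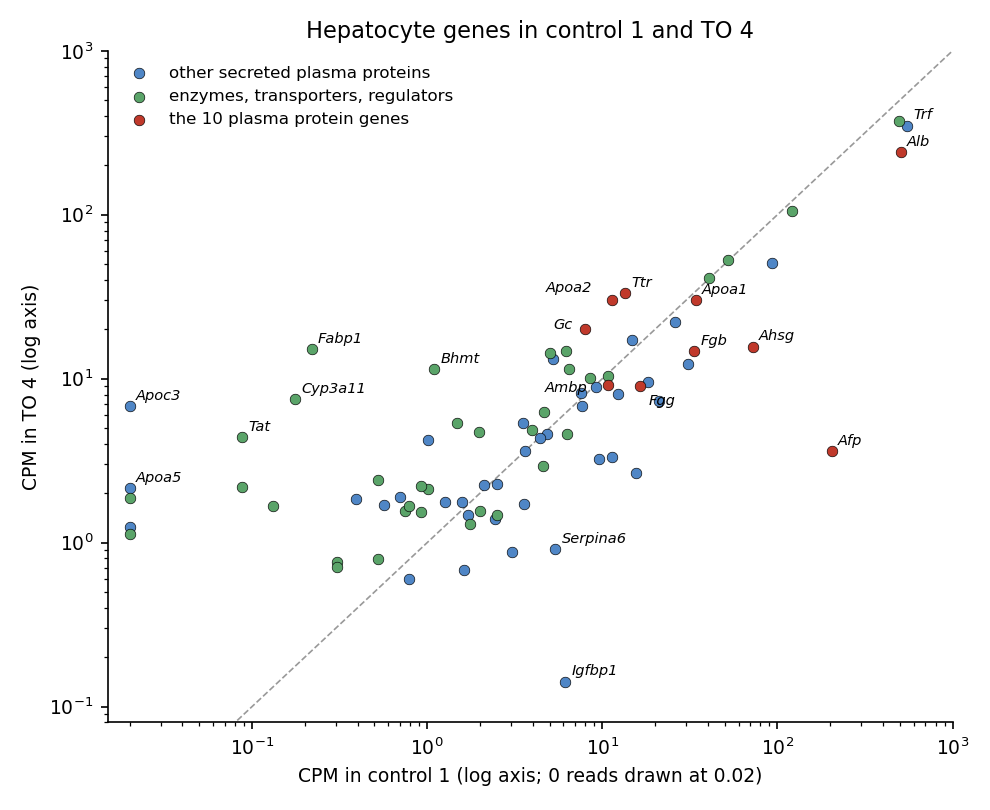
CPM in control 1 against CPM in TO 4 (log axes) for genes of the set and of the first 2 hepatocyte lists with at least 20 reads in either library; the dashed line marks equal CPM, and 0 reads are drawn at 0.02. Afp and Igfbp1 lie far under the line, at ratios of 0.0177 and 0.0232, and Fabp1, Apoc3 and Cyp3a11 far above it.

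The major urinary proteins, pheromone carriers that the liver of adult mice secretes, were read in TO 4 alone. Of 22 Mup genes, 13 had reads in TO 4, with 1893 read pairs in all and 53.7 CPM, and 0 read pairs fell on them in each of the other 7 libraries. This is at least 409-fold above control 1 when the family there is set to 3 counts. Mup3 had 39.6 CPM and Mup20 9.71 CPM, but Mup genes are near-identical copies and the split among them is uncertain. Read pairs that match several places fall in a row that names no gene, so these levels and the family total leave such pairs out. Serpina3k, a liver serpin, had 848 read pairs (24.1 CPM) in TO 4, 1 in control 3 and 0 in control 1, and Cyp2c29, another P450 of the liver, 168 in TO 4 and 0 in the other 7. Cyp3a16, a P450 known from fetal liver, had 19 read pairs in control 1 and 0 in the other 7. TO 4 thus held genes known from adult liver, beside little Afp, which its label as a lung at E18.5 does not explain. Its lung epithelial markers summed to 8722 CPM, the lowest sum of the 7 deep libraries. How the liver gene reads came into TO 4 was not tested.

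Markers of other tissues were summed in each library. Those of visceral yolk sac endoderm (8 genes), which also makes Afp, Ttr and apolipoproteins, were at 120 CPM in control 1, 124 in TO 4 and 114 to 132 in the other 5 deep libraries, and 2 of the 8 (Amn and Apoa4) had 0 reads in control 1. Of 10 gut genes 5 had 0 reads in control 1 and 3 in TO 4, and of 10 pancreatic genes 7 and 5. None of the 8, of 10 gut epithelium, 12 skeletal muscle, 11 erythroid, 10 lung epithelium or 8 megakaryocyte genes was 5-fold above the rest in either library, and of 10 pancreatic acinar genes 1 was, Cela3b in TO 4. Dab2, an endocytic adaptor of yolk sac endoderm that lung cells also express, had 77.7 CPM in control 1 and 89.2 in TO 4 (68.3 to 76.6 in the other 5), and Lgals4 and Cpa1, the leading gut and pancreas genes, 5.34 and 7.47 CPM (10.4 to 21.3), and 5.69 and 5.68 CPM (6.49 to 11.2).

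Erythroid genes summed to 3206 CPM in control 1 and 2987 in TO 4, both lower than the 3375 to 5104 CPM of the other 5 deep libraries, led by the globin genes Hbb-bs (1736 and 1700 CPM) and Hba-a1 (1060 and 927 CPM). Megakaryocyte genes, led by Itga2b, summed to 24.2 CPM in control 1 and 30.1 in TO 4 and to 16.7 to 31.4 in the other 5. Skeletal muscle genes, led by Ttn, which encodes the sarcomere spring titin, summed to 254 CPM in control 1 and 1336 in TO 4, against 55.1 to 903 in the other 5 deep libraries and 4259 in TO 1. Lung epithelial genes summed to 11350 CPM in control 1 and 8722 in TO 4, against 9628 to 19549 in the other 5 deep libraries. The part of muscle in the plasma protein reads was not tested.

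Krt4 and Krt13, keratin genes of stratified epithelium, were high in the same 2 deep libraries. Krt4, at 149 CPM in control 1 and 134 in TO 4, was at 1.08 to 4.92 CPM in the other 5 deep libraries, and Krt13, at 104 and 106, was at 0.289 to 1.25. In TO 1 they were at 3.44 CPM (1 read pair) and 24.1 CPM (7 read pairs). Unlike Afp, Ttr or the Mup genes, these 2 keratins, chosen after their values were seen, were at nearly equal CPM in control 1 and TO 4. Their part in the plasma protein reads was not tested.

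The specimen names of control 1, control 4, TO 1 and TO 4 end in the same digits, whose meaning is not stated. Control 2 and TO 2 share another ending, and control 3 and TO 3 a further one. Among these 4 libraries the summed CPM of the 10 genes was 908.6, 26.4, 96.4 and 405.6, and the other 4 had 2.70 to 34.1.

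The genes whose levels across the 7 deep libraries were most like the mean of the set were ranked by Pearson's r among 15883 genes with a mean of at least 1 CPM. The first 15 had r of 0.952 to 0.996, and 6 of them are in the hepatocyte lists, Fga, Fbp1, Apob, Plg, Itih4 and Cyp2d26. Pzp, a protease inhibitor of plasma (21.4 CPM in control 1 and 9.65 in TO 4), and Serpina1a (8.72 and 8.88 CPM) and Serpina1e (17.25 and 18.51 CPM), alpha-1-antitrypsin genes, were also among them. The Serpina1 genes are near-identical copies, so the split among them is uncertain, and read pairs that match several copies are left out. Krt5 (22.3 and 24.3 CPM), Pax9 (5.04 and 5.36 CPM) and Zfp750 (4.73 and 4.31 CPM), known from stratified epithelium, stood beside Upk3bl, Tlr6 and Sgk3, which had the highest r although it was at 18.6 to 25.4 CPM in all 7 libraries. Of the first 15, 4 (Serpina1a, Plg, Cyp2d26 and Serpina1e) were also among the first 15 when TO 1 was included.

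**Figure D4:**
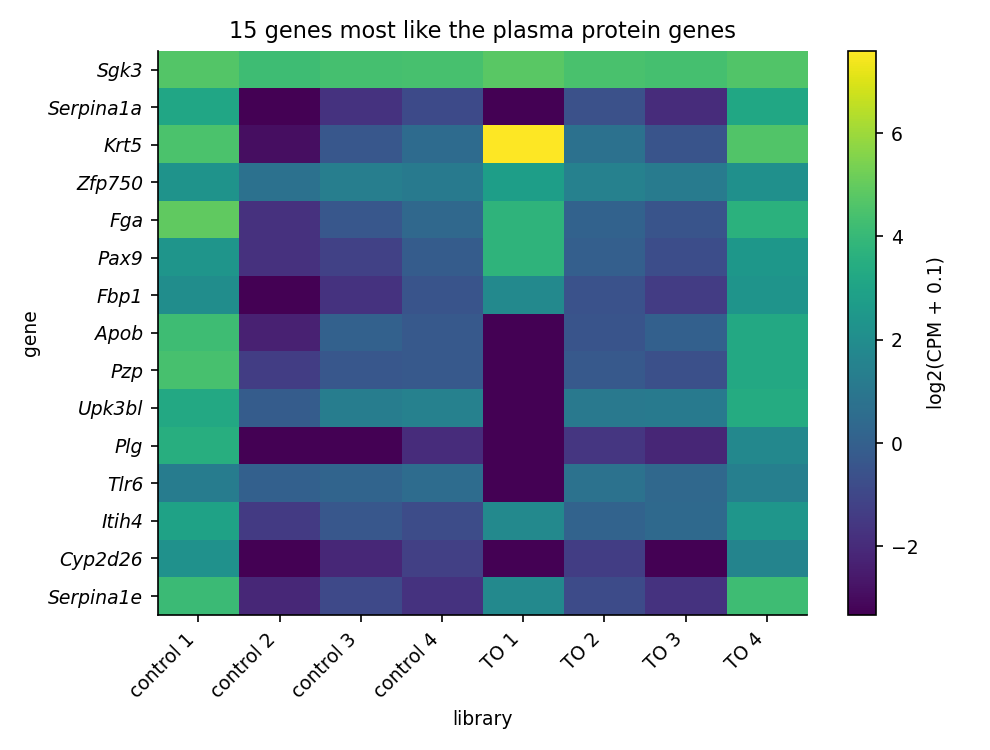
Level of the 15 genes most like the set, as log2(CPM + 0.1) by color, in each library. Control 1 and TO 4 are the brightest of the 7 deep libraries in every row, and TO 1, with few reads, is bright for Krt5 (193 CPM from 56 read pairs).

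TO was compared with control in the 6 libraries that the study's own display of the experiment names, controls 1, 2 and 4 and TO 2, 3 and 4, by the quasi-likelihood test of edgeR. All 10 genes passed the filter of 5 reads in at least 3 of the 6 libraries, and 0 were called at an adjusted p under 0.1. The genes were chosen by their CPM in single libraries, and control 1 and TO 4 held most of their reads. A wide spread within both groups came with that choice, so the count of 0 is a description. Of all 21859 genes tested, 0% were called, with 1094 at p values under 0.05 before adjustment. The count of all genes was 44 with DESeq2 (0.201%) and 0 with limma-voom (0%). The adjusted p of the 10 genes was 0.943 to 0.999 and the lowest unadjusted p 0.168, so 0 of the 10 had an unadjusted p under 0.05. DESeq2 also called 0, and gave a p for Ahsg only (adjusted p = 0.961), since it sets the p of genes with an extreme count aside.

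The log2 fold changes, TO against control, had standard errors of 1.88 to 2.77, and 9 of the 10 were smaller than their standard error. Afp was lowest at -3.72 ± 2.23, followed by Ahsg at -1.52 ± 1.88, Fgb at -1.06 ± 2.39 and Alb at -0.99 ± 2.60. Fgg was at -0.56 ± 2.34, Ambp at -0.14 ± 2.71 and Apoa1 at 0.03 ± 2.19. Ttr at 1.31 ± 2.77, Gc at 1.39 ± 2.07 and Apoa2 at 1.40 ± 2.40 lay on the other side of 0. Their median was -0.35, with 4 above 0 and 6 below, against -0.0045 over all genes tested.

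The direction of the set changed with which of the 2 libraries was in the comparison, and also with the method, since limma-voom on the same 6 libraries gave a median of 1.72. Without control 1 the median was 3.77, with 9 of the 9 genes tested above 0, and without TO 4 it was -3.04, with 0 of 9 above 0. The share of all genes called was 0% without control 1 and 1.14% without TO 4. Ambp did not pass the filter on low counts in either fit. Without both, in controls 2, 3 and 4 against TO 1, 2 and 3, where TO 1 gave 28 read pairs, 8 genes passed and all 8 were above 0, with a median of 1.11 beside -0.027 over all genes, and 0 were called (0% of all genes, and 1 of the 8 at an unadjusted p under 0.05). The sizes there ranged from 0.16 ± 0.999 for Apoa2 to 3.20 ± 1.20 for Fgg, whose adjusted p was the same as that of the others, 1, in the quasi-likelihood test of edgeR. In each of these fits 0 of the 10 genes were called.

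**Figure D5:**
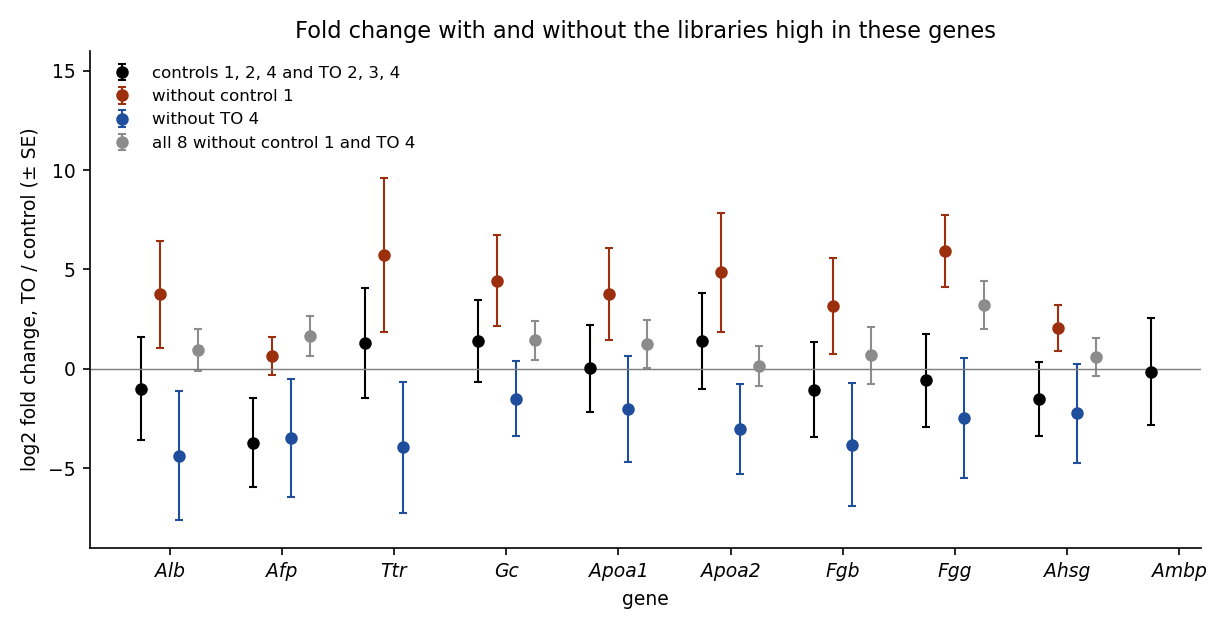
Log2 fold change, TO against control, with its standard error, of each gene in 4 fits: the 6 libraries, the same without control 1 or without TO 4, and all 8 without both. The points lie above 0 without control 1 and under 0 without TO 4; Ttr and Ambp lack points where they did not pass the filter.

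Among the other hepatocyte lists, 0 of 29 secreted plasma proteins tested, 0 of 30 enzymes, transporters and regulators, and 0 of 12 acute phase proteins were called by edgeR in the 6 libraries, beside the 0% of all genes. At an unadjusted p under 0.05 there were 0, 2 and 4, all higher in TO, beside 1094 of all 21859 genes tested. The 4 were Cp, C3, Serpina3n and Lcn2. The log2 fold change of Lcn2 was 1.83 ± 0.24, and 1.68 ± 0.37 in the 8 libraries without control 1 and TO 4. DESeq2 called 0, 0 and 2 (Lcn2 and Cp), beside 0.201% of all genes, and limma-voom 0 in each list. Their median log2 fold changes were 0.03, 0.54 and 1.09, beside -0.0045 over all genes, with 17 of 29, 21 of 30 and 10 of 12 above 0. Hp, Cp and C3, which lung cells also make, were at 0.46 ± 0.31, 0.93 ± 0.32 and 1.29 ± 0.49. Without control 1 and TO 4 the 3 medians were 0.22, -0.16 and 0.67.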

How the data were processed

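The authors prepared NexteraXT libraries of whole-lung RNA from 4 control and 4 TO fetuses, sequenced 150-bp pairs and aligned them with STAR to mm10 (GRCm38). The deposited files hold counts of read pairs for each gene, neither normalized nor filtered. Versions of STAR and the annotation are not given in the sources used here. Counts of both strands together were used, and rows that name no gene (23.08% to 27.06% of read pairs) were left out. Symbols and gene coordinates are those of GENCODE M21, to which 54487 of 55385 gene IDs were identical. Promoter windows follow RefSeq starts. The members and lists were chosen with earlier results of these data known.

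CPM were computed with edgeR 4.0.16 (R 4.3.3) after TMM scaling of all 8 libraries, log2 CPM with a prior count of 2, and CPM per kb over merged exons. Mup, keratin and other liver genes outside the lists were examined after their values were seen.

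TO was compared with control by edgeR's quasi-likelihood test with robust estimation and Benjamini-Hochberg adjustment over all genes that reached 5 reads in at least 3 libraries, at a threshold of 0.1, in the 6 libraries the study displays. The fit was tested on simulated data. Standard errors are the log2 fold change divided by the square root of F. Alternatives were DESeq2 1.42.0, limma-voom (limma 3.58.1), RLE factors, other filters, all 8 libraries, libraries left out, and blocks by replicate number or specimen name. A 5-fold difference and a floor of 3 counts were used for single libraries. Named were the 10 genes, the 3 most abundant genes of each list, of which the leading ones are given for other tissues, the 15 genes most alike, and genes said to be chosen after their values were seen. Also named were the acute phase genes at an unadjusted p under 0.05 in the 6 libraries. The reads carry no molecular identifiers, so exact Poisson and binomial intervals cover counting error only. The precision of TO 1 is the lowest.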

Additional observations from a re-analysis of the deposited data

Results flagged for a closer look

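In a group of 4, a lung was singled out where its gap to the nearest other lung took more of the group's range than Dixon's critical value at 95%. That value is passed in about 1 in 20 groups only for normally distributed values of genes chosen without regard to these data. Whether the CPM of single lungs are normally distributed was not tested. The genes here were chosen by their CPM in single libraries, so the rule is a description and no test. Control 1 was so far above the other 3 controls for all 10 genes, at 504.5 CPM for Alb, 203.9 for Afp, 72.4 for Ahsg, 34.2 for Apoa1, 33.6 for Fgb, 16.5 for Fgg, 13.5 for Ttr, 11.4 for Apoa2, 10.7 for Ambp and 7.97 for Gc, and for their sum, at 908.6 CPM. TO 4 was so far above the other 3 TO lungs for 5 genes, at 33.1 CPM for Ttr, 30.2 for Apoa2, 20.1 for Gc, 9.08 for Ambp and 9.0 for Fgg. These are the 5 genes with 0 reads in TO 1. The others had 2 to 13 read pairs there, which scale to 6.89 to 44.8 CPM. The number of genes singled out for TO 4 thus depends on that shallow library. The 10 genes rise together in control 1, so the genes singled out are not separate events, and they were proposed for this pattern.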

How the results depend on the processing

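Of 148 values of the 10 genes under the alternatives, 106 kept their direction and their side of the threshold of 0.1, 38 changed direction, and 4 kept it and passed the threshold. Of those that changed direction, 4 also passed it (Fgb, Fgg, Ahsg and Ambp with the replicate block in the 6 libraries). The cause was not tested except where the libraries in the fit show it.

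Leaving out 1 library moved the median log2 fold change of the 10 genes between -3.04 (without TO 4) and 3.77 (without control 1), of the other secreted proteins between -0.89 and 1.02 and of the enzymes, transporters and regulators between -0.29 and 1.08. The range was -4.36 to 3.76 for Alb, -4.30 to 0.64 for Afp, -3.95 to 5.74 for Ttr, -1.49 to 4.43 for Gc and -2.04 to 3.77 for Apoa1. It was -3.04 to 4.86 for Apoa2, -3.81 to 3.17 for Fgb, -2.47 to 5.95 for Fgg, -2.23 to 2.07 for Ahsg and -0.75 to 0.44 for Ambp. Ambp did not pass the filter without control 1, TO 2 or TO 4, so its range leaves out those fits. Apoa1 was also under 0 without control 2 (-0.57) and without control 4 (-0.49). The count of all genes called ranged from 0 to 237 (237 without TO 4, 35 without control 4, 5 without TO 2 and 3 without TO 3), of secreted proteins from 0 to 1, and of acute phase proteins from 0 to 2. None of the 10 genes was called in any of these fits.

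DESeq2 called 44 of all genes and 2 acute phase proteins, and with every gene of at least 1 read edgeR called 48 and 1. RLE factors and a filter of 5 reads in every library left 0 of all genes called. With limma-voom the median of the 10 was 1.72, against -0.35 with edgeR, and Alb was at 0.55, Fgb at 2.01, Fgg at 3.08, Ahsg at 1.10 and Ambp at 1.78. With all 8 libraries the median of the 10 was -0.04 and Ambp was at 0.18. Without control 1 and TO 4 of the 8 libraries, a choice made after seeing the data, Alb was at 0.96, Afp at 1.68, Fgb at 0.69, Fgg at 3.20 and Ahsg at 0.61, and the median of the enzymes, transporters and regulators was -0.16.

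Same-numbered lungs correlated at 0.0518, 0.13, 0.157 and 0.0709 (deviations from the group means). Differently numbered lungs were not correlated beside them, so these values do not decide whether the replicate numbers pair the lungs. The main fit used no pairing. The endings of the specimen names join control 2 with TO 2 and control 3 with TO 3, but are the same in control 1, control 4, TO 1 and TO 4. With the replicate number as a block in the 6 libraries, control 1 and TO 3 stand alone in their blocks and the contrast is control 2 against TO 2 and control 4 against TO 4. Control 1 thus drops out of the contrast while TO 4 stays in it. This block fit has nearly as many coefficients as libraries, so its p-values measure little of the spread between lungs. There 111 of all genes (0.508%), 8 of the 10 (all but Alb and Afp), 3 secreted proteins, 3 enzymes, transporters and regulators and 2 acute phase proteins were called, and the medians were 4.65, 0.95 and 1.72 for the first 3 lists. With this block Alb was at 3.88, Afp at 1.07, Ttr at 6.24, Gc at 4.70, Apoa1 at 4.60, Apoa2 at 4.82, Fgb at 3.87, Fgg at 6.28, Ahsg at 2.67 and Ambp at 7.58. In all 8 libraries the replicate block called 3 of all genes and 1 acute phase protein, with a median of the 10 of 1.89, Alb at 0.99, Afp at 0.56, Fgb at 1.31, Fgg at 3.04, Ahsg at 0.90 and Ambp at 3.35. A block by the digits of the specimen names called 3 and 1, with a median of 1.07, Fgb at 0.19, Fgg at 1.28 and Ambp at 1.09.

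Of the 15 genes most like the set, 4 remained when TO 1 was added. The depth of TO 1, 270078 read pairs, limits its values.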
